A study of Mus musculus with 10 samples.

Results

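Vcp and 7 genes of endoplasmic reticulum (ER) protein export, Sec61a1, Sec61b, Calr, Canx, Pdia3, Hspa5 and Hsp90b1, were followed through the single-cell RNA libraries of mouse SW1 melanomas. They are 8 of the 32285 genes in the deposited matrices, and all 8 were detected in every library and every class of cells described here. The members were chosen by name, with earlier results of these data known. Their level was taken as the UMIs (unique molecular identifiers, each standing for 1 captured RNA molecule) of the gene summed over the barcodes of a class in 1 library, per 1000000 UMIs of that sum (counts per 1000000, CPM). A barcode was kept with at least 500 genes and at most 10% mitochondrial UMIs. It was called a tumor cell with at least 1 Sox10 UMI and no Ptprc UMI, a macrophage with at least 10 UMIs of C1qa, C1qb and C1qc together, and a T cell with at least 2 UMIs of Cd3e, Cd3d and Cd3g together. Barcodes meeting none of these made up the other barcodes, and those meeting more than 1 were left out.

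Secreted and membrane proteins enter the ER through the Sec61 channel, in which Sec61a1 encodes the pore-forming subunit and Sec61b a small accessory subunit. In the lumen, BiP (Hspa5) and Grp94 (Hsp90b1) hold unfolded chains, while the lectin chaperones calreticulin (Calr) and calnexin (Canx) bind newly made glycoproteins and pass them to the disulfide isomerase ERp57 (Pdia3). Calreticulin and ERp57 also belong to the complex that loads peptides on MHC class I. Chains that do not fold are returned to the cytosol, where the ATPase p97 (Vcp) pulls them out of the membrane for the proteasome. When unfolded protein builds up, the unfolded protein response raises the transcription of many lumenal chaperone genes. Antibody-secreting plasma cells are known for very high levels of this machinery.

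The study asked how L-fucose (L-fuc), a sugar that cells attach to glycoproteins, alters dendritic cells. It used cultures of bone marrow cells, and mice with breast tumors or SW1 melanomas given L-fuc in drinking water. It reports changed expression of Vcp with L-fuc in the cDC1 subset and in dendritic cells grown from bone marrow. Dendritic cells are not set apart as a class here. SW1 cells, a mouse melanoma line, were grown for 10 days by the labels, and for longer by the study's methods, under the skin of female C3H/HeJ mice aged 4 to 6 weeks. The 5 gene expression libraries were made before treatment (control day 0), at day 7 without and with L-fuc, and at day 21 without and with L-fuc, and values are listed in that order. The labels give the L-fuc dose as 100 mM in 1 protocol and 100 nM in another, and the mice per treated or control arm as 5 in 1 and 6 in the other, with 3 mice before treatment. The study's methods give 100 mM for the SW1 model and 6 mice for each of control and L-fuc. Tumors were dissociated, cells sorted for CD45 (encoded by Ptprc), and the mice of a condition pooled into 1 library, so each condition had no replicate. Differences between conditions are therefore given with intervals for counting error only, without a test. SW1 is a single transplanted line, so every tumor cell here descends from 1 culture.

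The libraries held 1725, 20741, 15288, 2754 and 1428 barcodes in the order above, of which 1470, 17897, 9034, 1573 and 1182 were kept, with 14439185 to 119047810 UMIs per library. Despite the CD45 sort, 260 to 8648 barcodes of a library carried Sox10 without Ptprc. In these tumor cells the 11 tumor markers, which include Sox10 of the gate, summed to 3691 to 4525 CPM. Tyr had no UMI there in any library, Mlana none in control day 0 and the day 21 libraries, and Mia none in control day 0. The sum did not set tumor cells apart from the other barcodes in control day 21, at 4447 and 4470 CPM. In each other library the other barcodes lay below the tumor cells, the lowest at 673 in control day 0. Macrophages numbered 373 to 1503 and T cells 34 to 1292. The day 21 libraries held 54 (control) and 34 (L-fuc) T cells, the smallest sums of all. Barcode sequences seen in more than 1 library numbered 52 to 511 among those kept. Tumor RNA differed between libraries outside the tumor cells. In T cells the tumor markers summed to 1735 CPM in control day 7 and 620.0 in L-fuc day 7, against 5.54 in control day 0 and 25.6 and 15.6 in the day 21 libraries.

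The promoters of the members were read for elements of the unfolded protein response, which some of them hold and others lack. The ER stress element, a binding site of the unfolded protein response, was searched as CCAAT, 9 bases of any kind and CCACG on both strands, in the 300 bases from 250 before to 50 after the RefSeq start of each gene (GRCm38.p6). RefSeq windows were matched for 7 of the 8 members. The element was present in 4 of these 7, at 5 places, against 39 of 32851 promoter windows in all (0.119%). Those 4 windows, with the element in capitals, were as follows. Hspa5 lies at chr2:34771840-34772139 on the plus strand, Hsp90b1 at chr10:86705395-86705694, Calr at chr8:84846882-84847181 and Canx at chr11:50325624-50325923, each on the minus strand. The sequences run 5' to 3' along the gene.
Hspa5: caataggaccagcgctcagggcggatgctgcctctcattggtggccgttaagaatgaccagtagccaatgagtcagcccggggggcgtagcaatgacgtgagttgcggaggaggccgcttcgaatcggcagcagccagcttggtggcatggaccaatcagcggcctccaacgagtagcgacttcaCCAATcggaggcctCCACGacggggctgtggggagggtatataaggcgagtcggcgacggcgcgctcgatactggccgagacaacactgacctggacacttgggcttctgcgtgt
Hsp90b1: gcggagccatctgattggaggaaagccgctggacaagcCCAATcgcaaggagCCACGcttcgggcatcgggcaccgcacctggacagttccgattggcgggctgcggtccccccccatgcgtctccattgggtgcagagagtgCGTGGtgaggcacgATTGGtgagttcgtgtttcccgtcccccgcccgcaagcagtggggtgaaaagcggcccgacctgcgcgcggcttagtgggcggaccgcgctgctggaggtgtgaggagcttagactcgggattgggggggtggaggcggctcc
Calr: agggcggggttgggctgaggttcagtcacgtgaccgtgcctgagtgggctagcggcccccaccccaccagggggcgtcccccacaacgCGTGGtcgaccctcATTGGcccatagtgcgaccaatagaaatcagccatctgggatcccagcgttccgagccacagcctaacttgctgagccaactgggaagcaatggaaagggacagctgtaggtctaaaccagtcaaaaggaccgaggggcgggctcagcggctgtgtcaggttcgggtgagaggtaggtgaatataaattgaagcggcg
Canx: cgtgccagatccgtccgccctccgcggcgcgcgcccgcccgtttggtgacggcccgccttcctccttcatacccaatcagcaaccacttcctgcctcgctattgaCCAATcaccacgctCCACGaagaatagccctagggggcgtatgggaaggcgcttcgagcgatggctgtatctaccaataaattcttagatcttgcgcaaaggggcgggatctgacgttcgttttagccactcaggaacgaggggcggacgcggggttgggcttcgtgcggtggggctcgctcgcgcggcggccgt

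Hspa5 held its element 65 to 47 bases before the start, Canx 145 to 127 before it, and Calr 162 to 144 before it on the opposite strand. Hsp90b1 held 1 on each strand, 212 to 194 and 107 to 89 bases before the start. Vcp, at chr4:43000458-43000757 on the minus strand, lacked this element and held another motif of the response, the letters TGACGTGG, 114 to 107 bases before the start. That motif was in 222 of the 32851 windows (0.676%). Its window, with the motif in capitals, is shown to set it beside the chaperone genes.
Vcp: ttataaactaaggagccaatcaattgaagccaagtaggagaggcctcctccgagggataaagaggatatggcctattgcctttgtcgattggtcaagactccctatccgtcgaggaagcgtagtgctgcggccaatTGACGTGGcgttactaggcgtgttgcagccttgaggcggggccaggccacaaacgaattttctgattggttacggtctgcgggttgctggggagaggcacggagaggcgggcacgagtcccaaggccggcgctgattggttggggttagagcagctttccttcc

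Neither motif was in the windows of Sec61b and Pdia3, and the related element ATTGG, 1 base, CCACG was in none of the 7 (12 of all windows, 0.0365%). These matches describe letters and say nothing of binding. In the GENCODE M21 annotation of the same build the genes span Vcp chr4:42979963-43000507, Sec61a1 chr6:88503579-88518905, Sec61b chr4:47474658-47483242, Calr chr8:84841850-84846934, Canx chr11:50293961-50325673, Pdia3 chr2:121413775-121438687, Hspa5 chr2:34771970-34777547 and Hsp90b1 chr10:86690209-86705509.

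Vcp, the retrotranslocation ATPase, was read most in tumor cells. Its level there was 286 CPM in control day 0, 252 in control day 7, 250 in L-fuc day 7, 318 in control day 21 and 296 in L-fuc day 21. Macrophages gave 164, 189, 160, 148 and 158 in the same order. T cells gave 155, 204, 155, 139 and 172. The 5 tumor cell values lay above all 10 values of the 2 immune classes, while macrophages and T cells overlapped throughout. These levels are scaled by the total of each sum. In the class test below, which scales otherwise, Vcp in macrophages over tumor cells did not pass (log2 fold change -0.12). In barcodes of 2000 to 5000 UMIs it gave 0.25 in that test and did not pass.

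The 2 subunits of the Sec61 channel went in opposite directions between classes. Sec61a1 was at 182, 137, 137, 182 and 175 CPM in tumor cells, at 60.5, 76.9, 61.3, 60.9 and 73.9 in macrophages, and at 60.6, 97.0, 83.3, 87.6 and 109 in T cells. Sec61b was at 302, 248, 254, 265 and 254 in tumor cells, at 442, 288, 372, 341 and 408 in macrophages, and at 546, 328, 443, 343 and 622 in T cells. Each tumor cell value of Sec61a1 was above every immune value, and the Sec61b values of tumor cells overlapped those of macrophages only where control day 0 tumor cells (302) met control day 7 macrophages (288). The ratio of the 2 genes within a sum needs no scaling between classes. It was 1.45 to 1.85 Sec61b UMIs per Sec61a1 UMI in tumor cells, 3.75 to 7.31 in macrophages and 3.38 to 9.02 in T cells. Because the reads count molecules near 1 end of a transcript, only the change of this ratio between classes is read, not its size.

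The lectin chaperones and their isomerase were lowest in T cells before treatment. Calr was at 554, 699, 633, 769 and 749 CPM in tumor cells, 344, 511, 444, 376 and 425 in macrophages, and 145, 411, 256, 175 and 336 in T cells. Canx was at 297, 429, 367, 410 and 428 in tumor cells, 181, 301, 203, 179 and 224 in macrophages, and 114, 331, 181, 142 and 250 in T cells. Pdia3 was at 1008, 1056, 907, 1330 and 1292 in tumor cells, 572, 709, 555, 585 and 592 in macrophages, and 329, 658, 430, 504 and 568 in T cells. For Calr and Pdia3 the tumor cell values did not overlap those of either immune class. This too is on the scale of totals. In the class test below neither passed between macrophages and tumor cells, with log2 fold changes of -0.05 and -0.22. In barcodes of 2000 to 5000 UMIs each gave 0.52 there and did not pass. For Canx, control day 0 tumor cells (297) lay below control day 7 macrophages and T cells. Calr UMIs per Canx UMI were 1.23 to 1.42 in T cells, below the 1.63 to 1.88 of tumor cells and the 1.70 to 2.19 of macrophages.

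Of the lumenal chaperones, Hspa5 was lowest in T cells in each library and overlapped between tumor cells and macrophages, and Hsp90b1 was highest in tumor cells in 4 of 5 libraries. Hspa5 was at 833, 933, 739, 1395 and 1329 CPM in tumor cells, 653, 1009, 748, 947 and 995 in macrophages, and 297, 682, 400, 500 and 836 in T cells. Hsp90b1 was at 1335, 1513, 1305, 1787 and 1737 in tumor cells, 640, 930, 724, 686 and 1138 in macrophages, and 276, 912, 586, 358 and 2341 in T cells. L-fuc day 21 T cells stood above every other sum of Hsp90b1 in these 3 classes, and they were the sum of the fewest barcodes (34). Hspa5 UMIs per Sec61a1 UMI were 10.8 to 15.6 in macrophages, above the 4.57 to 7.67 of tumor cells and the 4.81 to 7.64 of T cells. In the other barcodes Hsp90b1 was at 635, 1329, 937, 1363 and 2944 and Vcp at 146, 219, 184, 197 and 261.

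**Figure D1:**
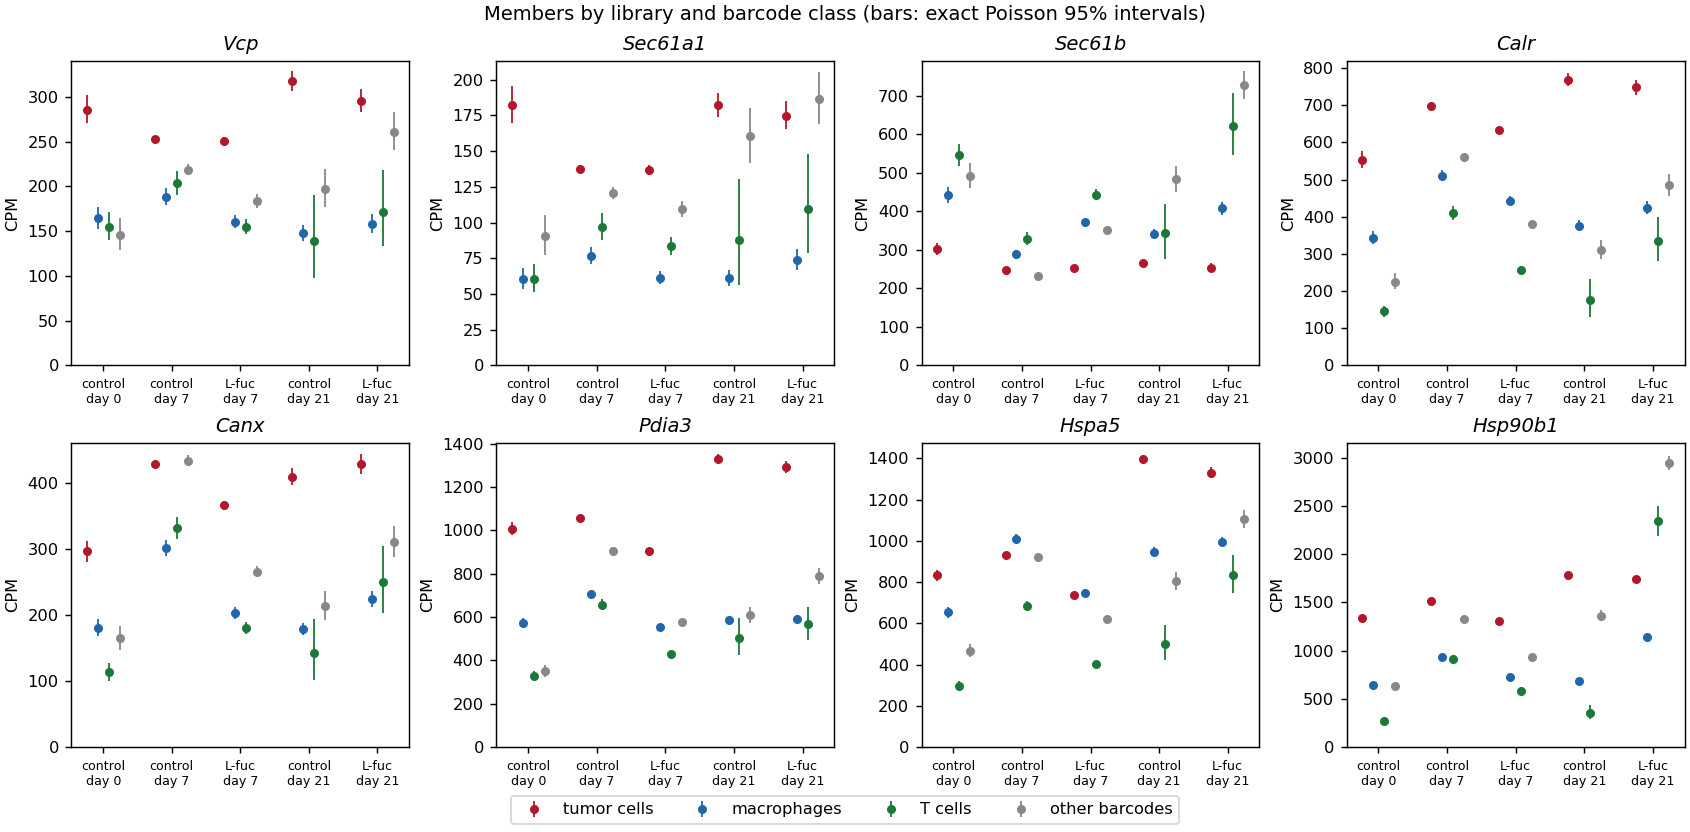
CPM (linear axes from 0) of the 8 members by library (horizontal axis) in tumor cells, macrophages, T cells and other barcodes; points are 1 pooled library each and bars are exact Poisson 95% intervals. Vcp and Sec61a1 are highest in tumor cells in every library among the 3 named classes, and Hsp90b1 reaches 2341 in L-fuc day 21 T cells.

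T cells held less of 6 of the 8 members than tumor cells did, and more of 1. The test was edgeR's quasi-likelihood test on 15 sums (3 classes in 5 libraries) with the library as a block. The libraries, which differ in day and treatment, stand as replicates of the class difference, and p-values were adjusted by Benjamini-Hochberg over 12869 genes. Calr was lower in T cells by a log2 fold change of -1.14 ± 0.18 (SE; edgeR adjusted p = 0.000348), Pdia3 by -0.90 ± 0.13 (adjusted p = 0.000161) and Canx by -0.71 ± 0.16 (adjusted p = 0.00272). Hspa5 (-0.69 ± 0.16), Sec61a1 (-0.62 ± 0.13) and Vcp (-0.47 ± 0.12, edgeR adjusted p = 0.00499) were lower as well. Sec61b was higher in T cells, with a log2 fold change of 1.03 ± 0.19 (edgeR adjusted p = 0.000747). Of all genes tested, 28.7% were lower and 33.4% higher in T cells. Hsp90b1 gave -0.86 ± 0.36 and did not pass (edgeR adjusted p = 0.0549). Without the L-fuc day 21 library it gave -1.34 and passed (edgeR adjusted p = 0.00229). The median T cell of a library had 3025 to 5748 UMIs and the median tumor cell 7394 to 24199. In barcodes of 2000 to 5000 UMIs 3 members were lower in T cells and 1 higher, beside 39.1% of all genes in either direction. Tumor marker RNA in the T cell sums, 1735 CPM in control day 7, was not taken out of this test.

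Between macrophages and tumor cells the split channel remained with barcodes of all depths, and most members did not pass. Sec61b was higher in macrophages (log2 fold change 1.11 ± 0.19, edgeR adjusted p = 3e-04) and Sec61a1 lower (-0.63 ± 0.12, edgeR adjusted p = 0.000732). Hspa5 was higher by 0.41 ± 0.16 (edgeR adjusted p = 0.0366). It did not pass without control day 0 (0.33), control day 7 (0.42) or L-fuc day 7 (0.22). The 2 higher and 1 lower members stood against 35.7% and 31.5% of all genes tested. Vcp gave -0.12 ± 0.12, Calr -0.05 ± 0.18, Canx -0.19 ± 0.16, Pdia3 -0.22 ± 0.13 and Hsp90b1 -0.31 ± 0.34. In this comparison the scaling decides which members pass and the direction of Hspa5. TMM scaling, used in the test, shifts log2 fold changes by 0.65 against library totals for macrophages over tumor cells. The shift is 0.29 for T cells over tumor cells and 0.37 for macrophages over T cells. With library totals 6 members were lower and 1 higher in macrophages than in tumor cells, beside 57.6% and 21.2% of all genes, Vcp at -0.77 (edgeR adjusted p = 0.000148) and Hspa5 at -0.24 (edgeR adjusted p = 0.183). The higher one was Sec61b (0.47, edgeR adjusted p = 0.00577), and Sec61a1 stayed lower (-1.28). The CPM values above are on the scale of totals. The median tumor cell of a library had 7394 to 24199 UMIs and the median macrophage 4171 to 8308. In barcodes of 2000 to 5000 UMIs 1 member was higher and 0 lower, beside 46.4% of all genes in either direction. The lower Sec61a1 thus did not pass there. Those barcodes held only 12 tumor cells in control day 0 and 4 in L-fuc day 21. A sum needed at least 20 barcodes, so neither of these entered that fit.

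Macrophages held more of 5 members than T cells did, and less of none that passed. Hspa5 was higher by 1.11 ± 0.16 (edgeR adjusted p = 0.000271), Calr by 1.10 ± 0.18 (edgeR adjusted p = 0.000677), Pdia3 by 0.67 ± 0.13, Canx by 0.52 ± 0.16 and Vcp by 0.35 ± 0.12 (edgeR adjusted p = 0.0343), against 21.4% of all genes. Sec61a1 (-0.01 ± 0.13), Sec61b (0.08 ± 0.18) and Hsp90b1 (0.55 ± 0.35) did not pass. With library totals 2 members, Calr (0.73) and Hspa5 (0.74), were higher, beside 13.8% of all genes. Vcp did not pass without control day 0 (0.39), L-fuc day 7 (0.39), control day 21 (0.29) or L-fuc day 21 (0.39), Canx not without control day 0 (0.46), L-fuc day 7 (0.58) or control day 21 (0.45), and Hsp90b1 passed without L-fuc day 21 (0.96, edgeR adjusted p = 0.0152).

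**Figure D2:**
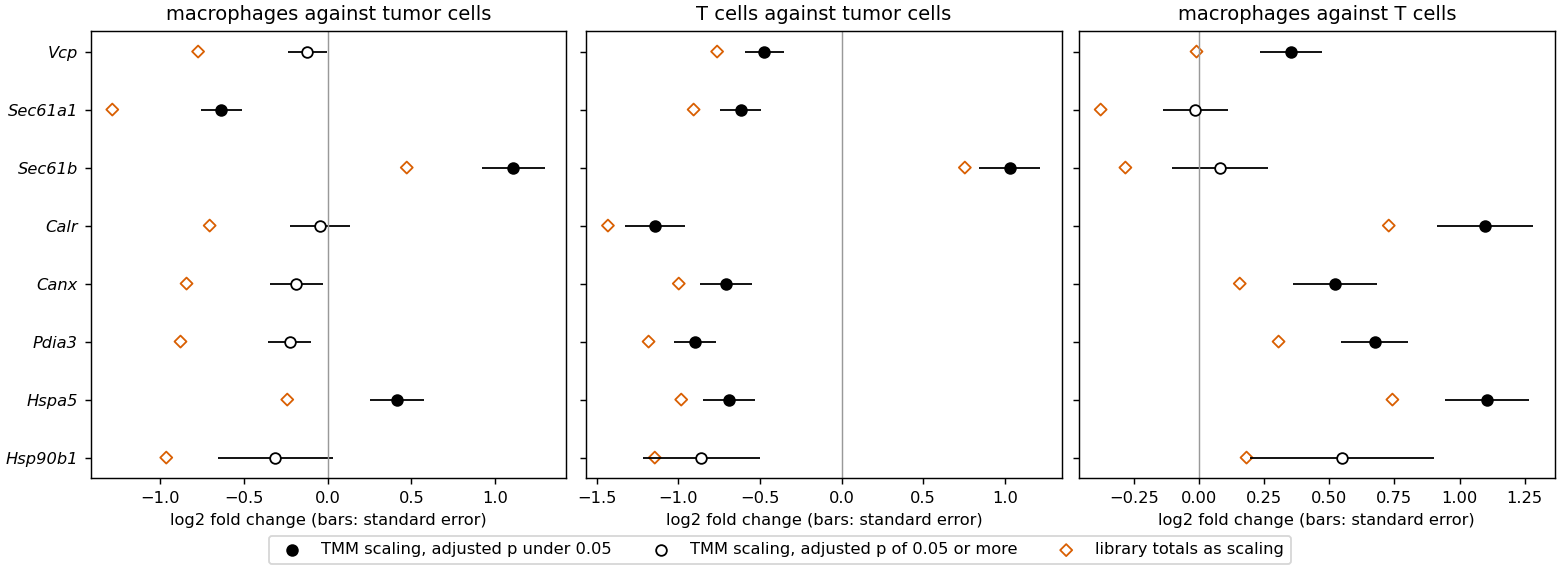
Log2 fold change (horizontal axis) of the 8 members in the 3 class comparisons; points are the edgeR estimates under the scalings and tests named in the legend, and bars are standard errors. Sec61b lies to the right of 0 and Sec61a1 to the left in both comparisons with tumor cells, and the Hspa5 estimate for macrophages over tumor cells lies at 0.41 with TMM and at -0.24 with library totals.

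The wider pathway was read from 7 lists of genes, which hold the members too and were chosen with earlier results known. Of 26 lumenal chaperones and disulfide enzymes, 14 were lower and 3 higher in T cells than in tumor cells, beside the 28.7% and 33.4% of all genes. With library totals 18 were lower and 2 higher, beside 38.6% and 25.7% of all genes. Their median log2 fold change was -0.57 against 0.04 over all genes, and -0.86 against -0.23 with library totals. Selenof (-0.96, edgeR adjusted p = 0.000131), Cnpy2 (-1.32) and Sil1 (-0.80), the nucleotide exchange factor of BiP, were lower, and Ero1lb, an oxidase of the disulfide enzymes, was higher (1.88). Of 12 genes of the calnexin and calreticulin cycle, 6 were lower and 0 higher in T cells (10 and 0 with library totals, with a median of -0.71 against -0.23 over all genes), among them the cargo receptor subunit Mcfd2 (-1.18, edgeR adjusted p = 0.000411). Of 12 genes of N-glycan transfer, 6 were lower and 1 higher (10 and 0 with totals, with a median of -0.69), among them the transferase subunits Rpn1 (-1.003) and Ddost (-0.73).

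Between macrophages and T cells, 13 of the 26 lumenal genes were higher in macrophages and 1 lower, beside 21.4% and 19.1% of all genes. With library totals 6 were higher and 3 lower, beside 13.8% and 36.3% of all genes. Their median was 0.46 against -0.06 over all genes, and 0.10 against -0.42 with library totals. P4hb, the classical protein disulfide isomerase, was higher by 2.25 (1.88 with totals) and Cnpy3, a chaperone of Toll-like receptors, by 1.30 (0.93 with totals). In the calnexin cycle 7 of 12 were higher in macrophages and 0 lower (3 and 2 with totals), with Erp29 at 1.72 (edgeR adjusted p = 4.69e-05).

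Of 42 tested genes of Vcp cofactors and retrotranslocation, 20 were higher and 2 lower in macrophages than in tumor cells, beside 35.7% and 31.5% of all genes. With library totals, which lower all genes alike here, 9 were higher and 20 lower, beside 21.2% and 57.6%. The median of these partners of Vcp was 0.31 against 0.04 over all genes, and -0.33 against -0.60 with library totals. Herpud1, which helps to organise the degradation complex, was higher under both scalings (2.61 ± 0.27, and 1.98 with totals), as was the lectin Os9 (1.04 ± 0.12, and 0.40 with totals). The deubiquitinase Yod1 (-1.34, and -1.98 with totals) and the mannosidase-like Edem3 (-0.76, and -1.41 with totals) were lower under both. In T cells 16 were higher and 4 lower than in tumor cells, beside 33.4% and 28.7% of all genes (12 and 7 with totals, beside 25.7% and 38.6%). The median there was 0.17 against 0.04 over all genes (-0.11 against -0.23 with totals). Vcp itself, Rnf5 (-0.41) and Bag6 (-0.40) were lower and Ube2j2 (0.62) higher. Svip, a small inhibitor of this degradation, passed in both comparisons on few counts, with 7 UMIs in all tumor cells, 51 in macrophages and 52 in T cells.

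Of 18 regulators and targets of the unfolded protein response, 10 were higher and 5 lower in macrophages than in tumor cells, beside 35.7% and 31.5% of all genes. With library totals 6 were higher and 8 lower, beside 21.2% and 57.6%. Their median was 0.52 against 0.04 over all genes, and -0.12 against -0.60 with library totals. The sensor Ern1 was higher in macrophages (2.52, and 1.91 with totals) while the sensor Eif2ak3 was lower (-0.97, and -1.62 with totals). In T cells 6 were higher and 4 lower than in tumor cells, beside 33.4% and 28.7% of all genes (3 and 8 with totals, beside 25.7% and 38.6%). Ern1 (2.06) and Slc7a11 (2.14) were among the higher, and Asns (-1.92) and Trib3 (-1.40) among the lower. Of 12 heat shock genes, a list of cytosolic chaperones and cochaperones that also holds the mitochondrial Hspd1 and Hspe1, 4 were higher and 2 lower in macrophages (2 and 7 with totals), with a median of 0.07 beside 0.04 over all genes. The lower were the cytosolic Hsp90ab1 (-0.69) and the mitochondrial Hspd1 (-0.47). The inducible Hspa1a was at 5.44 in macrophages and 4.84 in T cells over tumor cells. Hspa1b, of the same list, was at only 1.09 and 1.01. With totals Hspa1b gave 0.45 in macrophages (edgeR adjusted p = 0.0521) and 0.73 in T cells. Tumor cells held 48688 UMIs of Hspa1b and 3207 of Hspa1a. Among 25 translocon genes 8 were higher and 6 lower in macrophages, shares below the 35.7% and 31.5% of all genes. With totals 3 were higher and 19 lower, and their median of -0.64 stood beside -0.60 over all genes. Ssr4, a subunit of the translocon-associated complex, was higher under both (1.25, and 0.61 with totals), and Sec61a2, the second pore subunit gene, was lower under both (-1.04, and -1.68 with totals).

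Levels that ran most like that of Vcp over the 15 sums, by Pearson correlation of log2(CPM + 1) among 13732 genes, were those of Snd1 (0.986), Usp5 (0.985), Eri3 (0.98), Tmem237 (0.979) and Immt (0.979). The most like Hspa5 were Rps6kc1 (0.942), Ctc1 (0.923), Ccdc88a (0.921), Rtn3 (0.919) and Atp6v0a1 (0.918). Among the members Vcp ran most like Pdia3 (0.921) and Sec61a1 (0.909) and opposite to Sec61b (-0.703), and Hspa5 most like Calr (0.869). The sums share libraries and are split by class, so these values describe mostly class differences.

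In tumor cells at day 7, no member reached the 1.5-fold mark between L-fuc and control, where 9.54% of all genes did in 1 direction or the other. Vcp was at 250 CPM in L-fuc and 252 in control, a ratio of 0.99 (95% interval 0.97 to 1.02, counting error only, as for every interval here). Sec61a1 (ratio 1.00) and Sec61b (1.02) were as close. The chaperones were all lower in L-fuc, Hspa5 at 0.79 (0.78 to 0.80), Canx, Pdia3 and Hsp90b1 at 0.86 and Calr at 0.91. The median L-fuc tumor cell had 14040 UMIs and the median control tumor cell 7394. In barcodes of 10000 to 20000 UMIs the ratios were 0.71 for Hspa5, 0.74 for Pdia3 and Hsp90b1, 0.77 for Calr and 0.90 for Vcp. In barcodes of 2000 to 5000 UMIs they were 0.56, 0.53, 0.59, 0.64 and 0.85, with Canx at 0.50 and Sec61b at 1.79, and 26.6% of all genes were at least 1.5-fold lower in those barcodes. Of 18 genes of the unfolded protein response, 2 were at least 1.5-fold higher in L-fuc tumor cells, beside 3.24% of all genes, Chac1 (5.45 against 2.87 CPM) and Trib3 (12.1 against 7.73), both targets of its stress branch.

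In T cells at day 7 the 5 chaperone genes were all at least 1.5-fold lower in L-fuc, and the other 3 members were not. Canx was at 181 CPM in L-fuc and 331 in control, a ratio of 0.55 (0.51 to 0.59). Hspa5 was at 400 against 682 (0.59, 0.56 to 0.62), Calr at 256 against 411 (0.62, 0.58 to 0.66), Hsp90b1 at 586 against 912 (0.64, 0.62 to 0.67) and Pdia3 at 430 against 658 (0.65, 0.62 to 0.69). Vcp gave 0.76 (0.70 to 0.83), Sec61a1 0.86 and Sec61b 1.35 (1.27 to 1.44). The 5 of 8 members stood beside 19.9% of all genes at least 1.5-fold lower in L-fuc T cells. Among the 26 lumenal chaperones 8 were lower and 0 higher, with Pdia4 at 130 against 269. With TMM scaling 2 members, Canx (0.61) and Hspa5 (0.66), were past the mark on the lower side, beside 13.4% of all genes, and Sec61b (1.52) on the higher side, beside 10.4%.

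RNA of other cells moved with this difference in T cells. Of the 11 tumor markers, 8 were detected in control T cells (Mia, Mlana and Tyr at 0) and 9 in L-fuc T cells (Mia and Tyr at 0), with the sums of 1735 and 620.0 CPM given above. The 6 red cell markers summed to 1623 in control and 4110 in L-fuc T cells, with Slc4a1 at 0 in both. The 12 macrophage markers, all detected, summed to 1424 in control and 722 in L-fuc T cells, the 10 plasma cell markers, all detected, to 471 and 1662, and the 8 cycling genes to 668 and 386. In T cells without any UMI of Sparc or Sox10, 187 in control and 854 in L-fuc, Canx gave 0.53, Hspa5 0.63, Hsp90b1 0.67, Calr 0.71 and Pdia3 0.73, so 2 members stayed past the mark, beside 14.7% of all genes. The part of the red cell, macrophage, plasma cell and cycling RNA in the difference was not tested. In T cells of 10000 to 20000 UMIs, 86 in control and 149 in L-fuc, the 5 chaperone genes gave 0.45 to 0.57. In those of 2000 to 5000, 418 and 600, they gave 0.42 to 0.59. Of all genes, 21.3% and 20.2% were at least 1.5-fold lower in these 2 ranges. Barcodes holding Sparc or Sox10 UMIs were not left out there.

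Macrophages at day 7 had no member past the mark, where 22.9% of all genes were. Canx was at 203 CPM in L-fuc and 301 in control (0.67, 0.64 to 0.71), just inside it, Hspa5 at 748 against 1009 (0.74, 0.72 to 0.76) and Vcp at 160 against 189 (0.85, 0.79 to 0.91). Sec61b gave 1.29 (1.23 to 1.36). The tumor markers summed to 1024 in control and 403 in L-fuc macrophages, and in barcodes free of Sparc and Sox10 Canx gave 0.68, Hspa5 0.74, Hsp90b1 0.92 and Vcp 0.99. The red cell markers in macrophages summed to 732 and 4520, the plasma cell markers to 347 and 1064 and the cycling genes to 545 and 398. The part of these 3 sets was not tested. In the other barcodes Canx (0.61) and Pdia3 (0.64) were past the mark, beside 16.4% of all genes lower in L-fuc, and Sec61b (1.52) was past it on the higher side, beside 14.5%. With TMM scaling 1 was past it on each side, beside 12.9% of all genes lower and 15.6% higher. Barcodes that met none of the 3 gates and had at least 2 UMIs of Ncr1 and Klrb1c, natural killer cell genes, numbered 191 in control and 371 in L-fuc. Hsp90b1 was at 901 and 477 CPM there, Calr at 410 and 242 and Vcp at 208 and 150 beside Sox10 at 179 and 34.4.

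**Figure D3:**
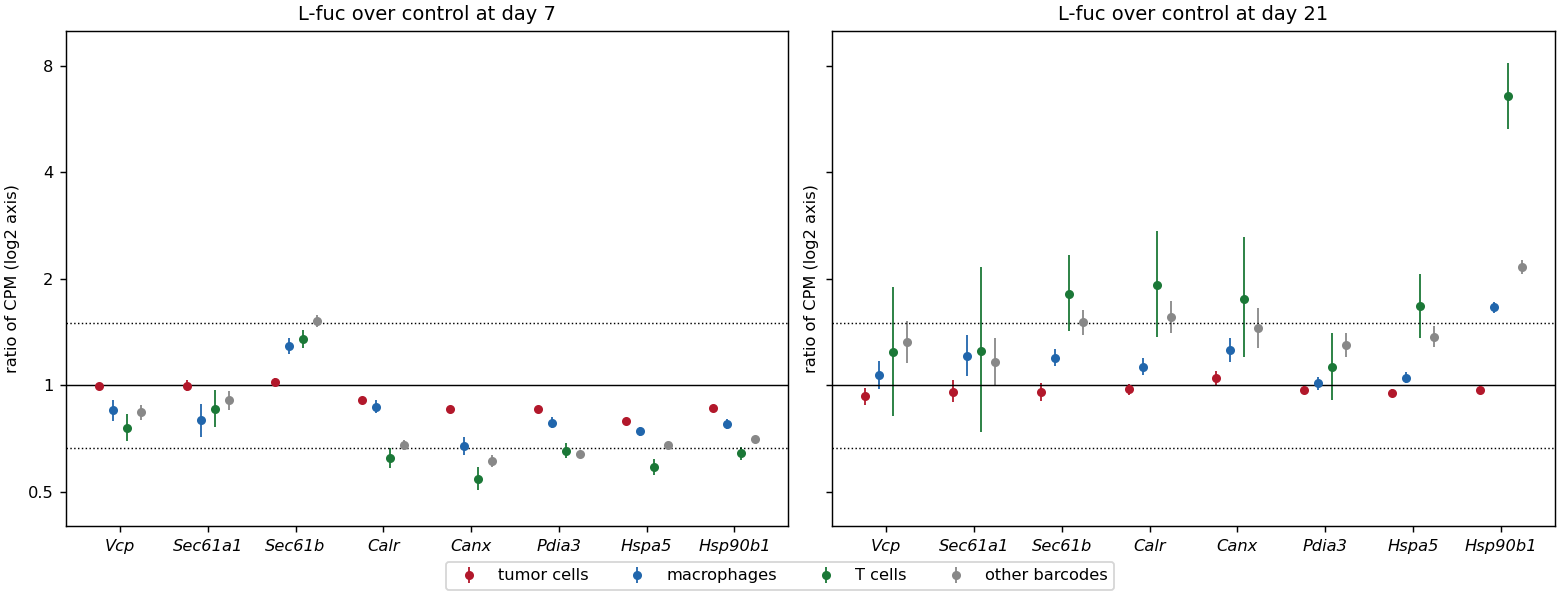
Ratio of CPM in L-fuc over control (vertical log2 axis) for the 8 members at day 7 and day 21, in the 4 classes; bars are exact 95% intervals for counting error, and dotted lines mark 1.5-fold. At day 7 the 5 chaperone genes of T cells lie between 0.55 and 0.65, and at day 21 Hsp90b1 in T cells lies at 6.54 while the members in tumor cells lie between 0.93 and 1.04.

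At day 21 the tumor cells of the 2 arms were close in every member. The ratio of L-fuc over control ran from 0.93 for Vcp (0.88 to 0.98) to 1.04 for Canx (1.00 to 1.09), and no member was past the mark, where 6.9% of all genes were. Hspa5 was at 1329 against 1395 CPM and Hsp90b1 at 1737 against 1787. Of the 11 heat shock genes tested in the same cells, 6 were at least 1.5-fold higher in L-fuc, beside 3.83% of all genes, with Hspa1a at 58.4 against 11.0 and Hspa1b at 833 against 345. Of the 26 lumenal chaperones, 0 were past the mark in tumor cells.

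Hsp90b1 in macrophages at day 21 was at 1138 CPM in L-fuc and 686 in control, a ratio of 1.66 (1.60 to 1.72), beside 7.55% of all genes at least 1.5-fold higher. The other 7 members lay between 1.01 (Pdia3) and 1.25 (Canx). The 10 plasma cell markers, Jchain, Mzb1, Xbp1, Sdc1, Tnfrsf17, Derl3, Igkc, Ighm, Igha and Iglv1, were all detected in both arms and summed to 12413 in L-fuc against 765 in control macrophages. Jchain, the joining chain of secreted antibodies, had at least 10 UMIs in 33 of 381 L-fuc and 5 of 767 control macrophages. Without those barcodes (348 and 762 left) Hsp90b1 gave 1.19 (1.14 to 1.24). Its 3 highest barcodes in L-fuc macrophages held 468, 407 and 356 Hsp90b1 UMIs, 18.9% of the class, with 244, 392 and 768 Jchain UMIs.

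In T cells at day 21, 5 members were at least 1.5-fold higher in L-fuc, beside 14.8% of all genes. Hsp90b1 was at 2341 CPM against 358, a ratio of 6.54 (5.31 to 8.14). Calr was at 336 against 175 (1.92, 1.37 to 2.73), Sec61b at 622 against 343 (1.81, 1.42 to 2.33), Canx at 250 against 142 (1.76, 1.20 to 2.62) and Hspa5 at 836 against 500 (1.67, 1.36 to 2.06). Vcp gave 1.24 (0.82 to 1.90) on 104 UMIs in both arms together, so that these counts could not show whether the arms differed. Of 899 Hsp90b1 UMIs in the 34 L-fuc T cells, 703 (78.2%) came from 3 barcodes, which held 413, 395 and 703 Jchain UMIs. The plasma cell markers summed to 17474 in L-fuc and 161 in control T cells, all 10 detected in the first and Sdc1, Tnfrsf17, Derl3 and Iglv1 at 0 in the second. The 8 cycling genes, all detected in both, summed to 1362 in L-fuc and 106 in control T cells, and their part in the difference was not tested. Jchain reached 10 UMIs in 6 of 34 and 0 of 54 barcodes. Without these, 28 and 54 barcodes were left, and Hsp90b1 gave 1.75 (1.36 to 2.25), Canx 1.87, Calr 1.56, Sec61b 1.40 and Hspa5 0.95.

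The same markers stood beside Hsp90b1 in the other barcodes of day 21, where it was at 2944 in L-fuc and 1363 in control (2.16, 2.06 to 2.27). Calr (1.56) and Sec61b (1.504) were also past the mark there, beside 4.93% of all genes. The plasma cell markers summed to 25152 and 14320. All kept barcodes with at least 10 Jchain UMIs, of any class, numbered 13, 29, 34, 16 and 105 in the 5 libraries. Hsp90b1 was at 2058, 2670, 2790, 2750 and 3957 CPM in them, above every class sum of the same library. Vcp in the same barcodes was at 114, 146, 170, 103 and 207, below the tumor cells of each library.

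**Figure D4:**
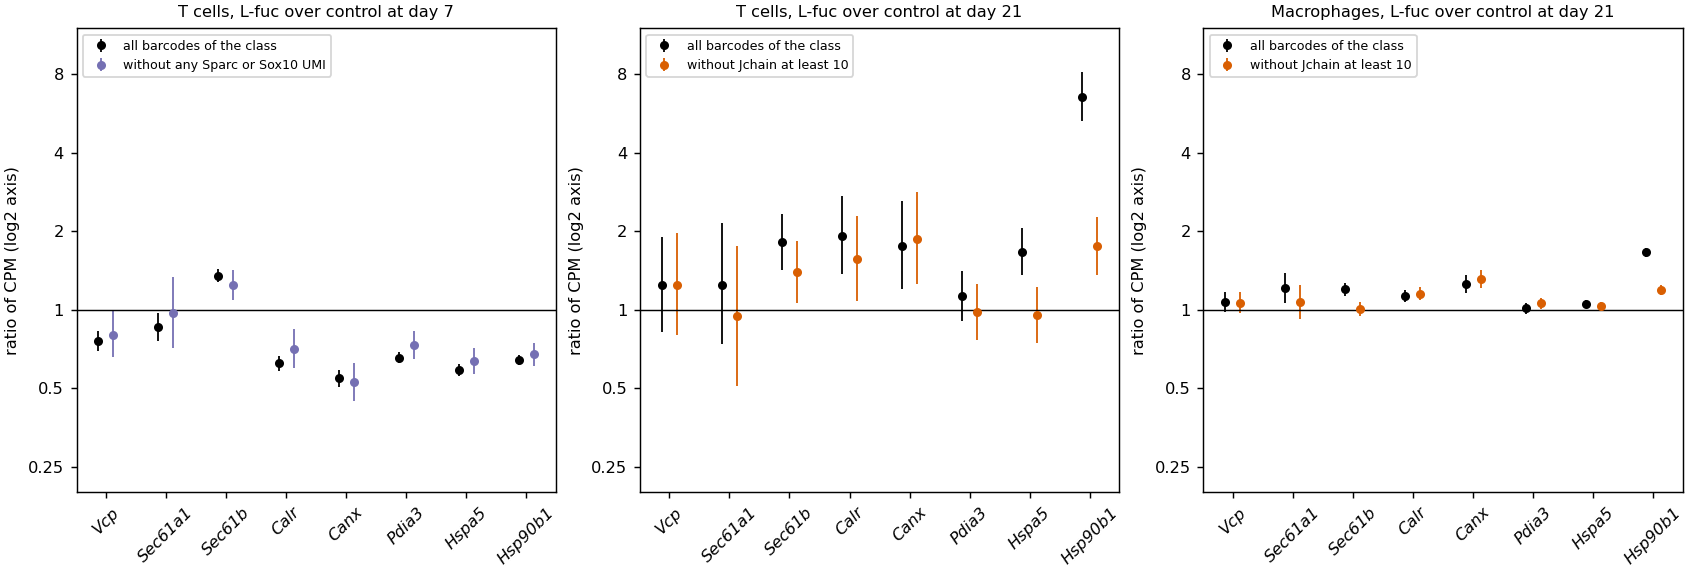
Ratio of CPM in L-fuc over control (vertical log2 axis) for the 8 members with all barcodes of the class and without the barcodes named in each panel; bars are exact 95% intervals for counting error. Leaving out barcodes with at least 10 Jchain UMIs takes Hsp90b1 at day 21 from 6.54 to 1.75 in T cells and from 1.66 to 1.19 in macrophages.

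Within T cells, the 5 chaperone genes were the members that differed most between control day 0 and control day 7. Hsp90b1 was at 276 CPM on day 0 and 912 on day 7 (3.31, 3.05 to 3.59), Canx at 114 and 331 (2.92, 2.57 to 3.32), Calr at 145 and 411 (2.83, 2.53 to 3.17), Hspa5 at 297 and 682 (2.30) and Pdia3 at 329 and 658 (1.999). Sec61a1 was at 60.6 and 97.0 (1.60), while Sec61b was at 546 and 328 (0.60, 0.56 to 0.65). These 6 higher members and 1 lower stood beside 38.0% and 9.86% of all genes. The tumor markers in T cells were at 5.54 on day 0 and 1735 on day 7, and without barcodes holding a UMI of Sparc or Sox10 4 members were higher, beside 24.9% of all genes, and 0 lower. In macrophages Canx (1.67) and Hspa5 (1.55) were higher, beside 38.6% of all genes, and Sec61b (0.65) lower, beside 5.89%. The tumor markers in macrophages were at 50.4 on day 0 and 1024 on day 7, and the red cell markers, all at 0 on day 0, at 732 on day 7. With TMM scaling 0 were higher and 1 lower in macrophages, beside 15.6% of all genes lower. In tumor cells no member was past the mark, where 28.7% of all genes were, with ratios from 0.75 for Sec61a1 to 1.45 for Canx. In the other barcodes 6 were higher, Canx at 2.64 and Vcp at 1.501, beside 46.0% of all genes, and Sec61b lower (0.47), beside 15.6%.

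From control day 7 to control day 21 the members of T cells lay nearer to their day 0 values. This comparison uses the same control day 7 library as the day 0 and the L-fuc comparisons, so its ratios are not separate evidence. Hsp90b1 was at 0.39 (0.32 to 0.48) of its day 7 level, Calr at 0.43 (0.31 to 0.57) and Canx at 0.43 (0.30 to 0.59). These 3 of 8 members stood beside 31.0% of all genes lower. The tumor markers in T cells summed to 5.54, 1735 and 25.6 CPM on days 0, 7 and 21 of control. The cycling genes there summed to 256, 668 and 106, and the part of either in these ratios was not tested. In macrophages Canx alone was past the mark (0.59, 0.56 to 0.63), beside 24.0%. In tumor cells 0 members were past it, where 22.3% of all genes were, though Hspa5, at 1395 against 933 CPM, lay just inside it (1.496, 1.47 to 1.52). Vcp and Sec61a1 were at 1.26 and 1.33 there. In the other barcodes Sec61b was higher (2.09), beside 20.3%, and Calr (0.56) and Canx (0.49) lower, beside 25.0%. The plasma cell markers there were at 824 on day 7 and 14320 on day 21, and the red cell markers at 2052 and 14.4, and their part in these ratios was not tested. Each of these days is 1 pool, so day and library cannot be told apart.

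Within tumor cells, the 5 chaperone genes were higher in cycling barcodes in each library, and Vcp went both ways. Barcodes with at least 3 UMIs of Mki67, Top2a and Cenpf together, 3 of the cycling genes, were set against those with none of them. This split was chosen after the values were seen. Hsp90b1 was higher in cycling tumor cells in 5 of 5 libraries, with ratios of 1.38 to 1.76, Hspa5 in 5 of 5 (1.24 to 1.68), Pdia3 in 5 of 5 (1.15 to 1.54), Calr in 5 of 5 (1.09 to 1.43) and Canx in 5 of 5 (1.12 to 1.33). The counting intervals of these 5 members lay above 1 in each library. Sec61a1 gave 1.10 to 1.29 and Sec61b 1.05 to 1.25, with 4 of 5 intervals above 1. Vcp gave 0.89 to 1.21, with 2 intervals above 1 and 1 below. Cycling barcodes were deeper, with a median of 10677 UMIs against 6678 in control day 7 and 36372 against 19014 in L-fuc day 21. The part of depth in these ratios was not tested. The ratios were not taken over all genes, so a shift shared by many genes cannot be told apart from one of the members.

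Tumor cells carrying RNA of Car9 and Pgf, genes known to respond to low oxygen, held less of most members, Vcp among them. Barcodes with at least 2 UMIs of the pair were set against those with none. Vcp was at 0.55 to 0.75 of the level in the free barcodes, below 1 in 5 of 5 libraries with every interval below 1. Sec61b (0.56 to 0.86), Canx (0.75 to 0.84) and Pdia3 (0.41 to 0.84) were below 1 in every interval as well. Hsp90b1 ran from 0.63 to 1.05, with 4 intervals below 1 and 1 above it. Calr (0.46 to 0.96) and Hspa5 (0.47 to 0.996) had 4 of 5 intervals below 1, and Sec61a1 (0.77 to 0.92) had 3. Vcp was at 182 and 331 CPM in control day 0, where the median depth of the 2 kinds of barcodes was 16773 and 17050 UMIs. In the other libraries the barcodes with Car9 and Pgf were deeper, with 8675 against 6897 UMIs in control day 7 and 30848 against 14973 in L-fuc day 21. The part of depth in these ratios was not tested. They too were not taken over all genes, so a shift shared by many genes cannot be told apart from one of the members.

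**Figure D5:**
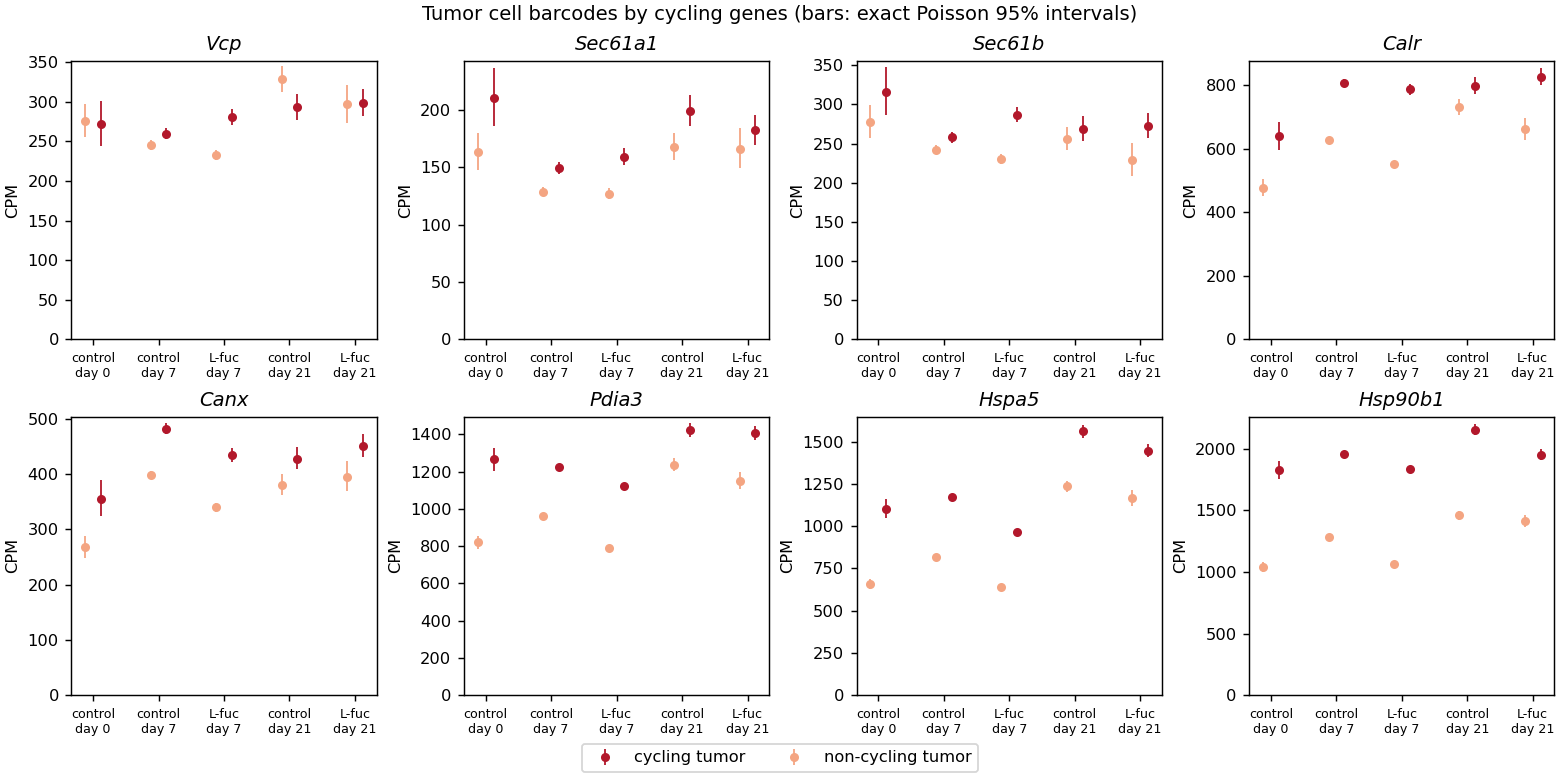
CPM (linear axes from 0) of the members in cycling and non-cycling tumor cells by library (horizontal axis); bars are exact Poisson 95% intervals. Cycling tumor cells lie above non-cycling ones in all 5 libraries for Hsp90b1, Hspa5, Pdia3, Calr and Canx, while Vcp crosses.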

How the data were processed

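RNA of CD45-sorted cells from SW1 melanomas was measured in 5 gene expression libraries made with 10x Genomics chemistry. The authors deposited counts, the UMIs of each gene in each barcode, on mm10. The submitters' processing notes name Cell Ranger 3.0 and Seurat 4.0, which the study's methods give for UMI counting and for later steps, but the matrix headers name Cell Ranger 7.1.0. That version counts intronic reads by default, so whether these UMIs include them is not settled here. The identifier and category columns of the same matrices (unit other) were used as deposited, and rows sharing a symbol were summed. The 5 T cell receptor libraries were not used here.

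From the raw counts, UMIs were summed per library and class and divided by the total of that sum, per 1000000 (CPM). Ratios between libraries carry exact conditional binomial 95% intervals, levels carry exact Poisson 95% intervals, and a ratio counted as called at 1.5-fold in either direction among genes whose UMIs in both libraries together came to at least 50. Intervals cover counting error only. Barcodes meeting more than 1 gate were left out, and no doublet caller was run. In these sums fewer cells of a kind and less RNA per cell cannot be told apart. Classes were compared with edgeR 4.0.16 (R 4.3.3): quasi-likelihood test, filterByExpr, TMM and library as a block over 15 sums, with Benjamini-Hochberg adjustment over all genes and a threshold of 0.05. The fit was tested on simulated data. Alternatives included DESeq2 1.42.0, library totals, other gates and filters, thinning to 1000 UMIs and leaving out each library. Depth ranges, barcodes with at least 10 Jchain UMIs and barcodes with tumor marker UMIs (Sparc or Sox10) were added after seeing the data. A further tumor marker is not reported here. Sums and intervals used scipy 1.17.1, numpy 2.4.6 and pandas 2.3.3 under Python 3.11.15, and figures matplotlib 3.10.9. Nothing says whether the mice of a pool were handled apart. The p-values thus measure how far class differences vary between these pooled libraries, not between mice.

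The members and gene lists were chosen with earlier results of these data known. List genes named were up to 3 in each direction with the lowest adjusted p in each class comparison, or with the largest ratio among genes with at least 100 UMIs in comparisons of 2 libraries, and the 5 genes most like Vcp or Hspa5 by correlation. Promoter windows are RefSeq's (GRCm38.p6), gene spans GENCODE M21's.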

Additional observations from a re-analysis of the deposited data

Results flagged for a closer look

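Pdia3 in macrophages stood apart in 1 of 5 libraries. Control day 7 was at 708.68 CPM, while the other 4 libraries lay between 555 and 592, so its gap to the nearest took most of the range of the group. This was 1 of 24 sets of 5 libraries examined in this way, and chance alone marks about 1 set in 20. The 5 libraries differ in day and treatment, and the tumor markers in these macrophages summed to 1024 CPM.

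In T cells 4 members lay past 1.5-fold in opposite directions at the 2 days of L-fuc treatment. Set over control, L-fuc gave a ratio of 0.622 at day 7 and 1.917 at day 21 for Calr, 0.545 and 1.756 for Canx, 0.587 and 1.671 for Hspa5, and 0.642 and 6.543 for Hsp90b1. Of all genes in T cells, 19.9% were at least 1.5-fold lower in L-fuc at day 7 and 14.8% at least 1.5-fold higher at day 21. The share of all genes past the mark in opposite directions was not taken. A reversal shared by many genes thus cannot be told apart from one of the members. With 1 library per condition the difference between the days was not tested. Without barcodes of at least 10 Jchain UMIs the day 21 ratios were 1.56 for Calr, 1.87 for Canx, 0.95 for Hspa5 and 1.75 for Hsp90b1, so that Hspa5 no longer lay on opposite sides. Without barcodes holding a UMI of Sparc or Sox10 the day 7 ratios of Calr (0.71) and Hsp90b1 (0.67) were not past 1.5-fold, and with TMM scaling the day 7 calls of these 2 members ended as well.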

How the results depend on the processing

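Of the counts of members past the mark or test, 247 stayed within 1.5 times under an alternative and 52 did not. For single members, 1746 alternatives showed none of the changes named next, though the value itself could shift. Of the rest, 20 gained and 28 lost a call of the class test, 16 changed sign, and the others moved a ratio by more than its counting interval. For the cases that moved the cause was not tested. In 44 of the 52 counts that moved, the share of all genes called moved the same way, and in 8 it did not. For L-fuc over control at day 7 in barcodes of 2000 to 5000 UMIs, that share rose from 9.54% to 33.2% in tumor cells, from 22.9% to 48.4% in macrophages and from 30.9% to 56.7% in other barcodes, so that the counts below are to be read against it.

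Shares in brackets are of all genes past the mark in either direction under the same setting. For L-fuc over control at day 7, macrophages had 2 members past the mark as a mean over barcodes (36.4%) or thinned to 1000 UMIs (29.8%). Without the deepest 5% of barcodes (above the 95th percentile) they had 1 (22.7%). In barcodes of 2000 to 5000 UMIs macrophages had 6 (48.4%) and tumor cells also had 6 (33.2%). T cells had 2 with stricter gates (21.9%) or without tumor marker UMIs (23.1%). They had 3 with TMM scaling (23.8%), or with hemoglobin, mitochondrial and ribosomal protein genes taken out of the total (24.3%). Other barcodes had 5 at a minimum of 200 genes (38.2%), without the deepest barcodes (32.0%) or without tumor marker UMIs (43.3%). They had 6 as a mean over barcodes (38.7%), thinned (37.0%) or at 2000 to 5000 UMIs (56.7%). For day 21, macrophages had 2 thinned (17.5%) or at 2000 to 5000 UMIs (26.9%). They had 0 without the deepest barcodes (9.3%), at 10000 to 20000 UMIs (13.4%), without Jchain barcodes (9.57%) or without tumor marker UMIs (8.87%). T cells had 1 thinned (35.4%) and 3 with stricter gates (41.1%) or without Jchain barcodes (40.0%), where Hspa5 turned to 0.951. Other barcodes had 5 as a mean (50.3%) or thinned (45.9%), 6 without tumor marker UMIs (36.7%) and 7 with TMM scaling (20.1%).

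For control day 7 over day 0, tumor cells had 1 as a mean over barcodes (37.4%). Macrophages had 1 with multi-gate barcodes assigned (43.2%), stricter gates (40.2%), 10000 to 20000 UMIs (44.4%) or TMM scaling (42.7%). They had 5 at 2000 to 5000 UMIs (62.9%). T cells had 4 without tumor marker UMIs (36.2%). For day 21 over day 7, tumor cells had 1 without the deepest barcodes (21.3%) or without barcode sequences shared between libraries (22.2%). This was Hspa5, at 1.496 with all barcodes. Tumor cells had 6 at 2000 to 5000 UMIs (53.9%). Macrophages had 3 at 10000 to 20000 UMIs (39.9%) and 2 at 2000 to 5000 (34.9%). T cells had 5 at 2000 to 5000 UMIs (52.4%) or with TMM scaling (53.1%). Other barcodes had 7 at 2000 to 5000 (61.1%) and 6 without tumor marker UMIs (43.2%).

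In the class test, macrophages against tumor cells gave 7 members with library totals, beside 78.8% of all genes in either direction. At 2000 to 5000 UMIs they gave 1 (46.4%), a higher one, so the lower Sec61a1 did not pass there. T cells against tumor cells gave 4 at 2000 to 5000 UMIs (39.1%). Macrophages against T cells gave 2 with library totals (50.1%), 3 without the library block (35.2%), and 3 to 5 leaving out 1 library. When each library was left out, Calr in macrophages over tumor cells ran from -0.221 to 0.001, Sec61a1 in macrophages over T cells from -0.044 to 0.06 and Sec61b there from -0.032 to 0.182. Log2 fold changes of macrophages over tumor cells that changed sign were Hspa5 at -0.241 with library totals, and Vcp at 0.251, Calr at 0.524 and Pdia3 at 0.52 at 2000 to 5000 UMIs, of which Hspa5 alone had passed. For macrophages over T cells Vcp turned to -0.01 and Sec61b to -0.283 with library totals. Sec61a1, near 0 to begin with, turned to 0.01 without a filter, 0.201 when thinned, 0.039 with stricter gates and 0.034 without Jchain barcodes.

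No paired analysis between conditions was possible because each condition had 1 library, and the shared number 1 of the labels ties no samples together. Only the class test compared sums within a library. The 54 and 34 T cells of day 21 limit Vcp and Sec61a1 there, with 104 and 66 UMIs in both arms together.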
